A study of Mus musculus with 21 samples.

Results

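Gene expression in the lung 12 h after a foreign protein, bovine serum albumin (BSA), was set against that after its vehicle, Hank's balanced salt solution (HBSS). All arrays titled as 12 h after BSA (n = 4) and as 12 h after HBSS (n = 4) were taken, which made 8 of the 21 arrays of the series, with all 22626 non-control probe sets. BSA mice were given 20 µg in 50 µl of HBSS as 1 aspiration into the trachea, and HBSS mice the 50 µl alone. Every mouse was a female BALB/c of 8 weeks, and each array held RNA from a whole left lung, snap-frozen and homogenised. The labels call the arrays biological replicates and do not say whether an array held 1 mouse or a pool. The rest of the series gave BSA (n = 3) and HBSS (n = 3) at 3 h and MACA, a crude antigen of the fungus Metarhizium anisopliae, at 3 h (n = 4) and 12 h (n = 3). In the study, albumin stands for a protein of low allergenicity beside the fungal antigen.

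A soluble protein in the airways is taken up by alveolar macrophages and dendritic cells, and the epithelium clears part of it. Dendritic cells carry antigen to T cells and B cells, which reach the lung through the blood and through chemokines and integrins. Serum albumin carries fatty acids and is itself bound by receptors for endocytosis on lung epithelium.

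Array values are given as log2(intensity + 16) after quantile normalization, so a difference of 1 is a 2-fold difference, and folds of dim genes are understated. A value of 4.00 means an intensity of 0, and values below 5.83 lay within the noise level. The lung label was checked against its markers: all 19 measured alveolar epithelial markers lay above noise on all 8 arrays. Surfactant protein C (Sftpc) stood at the highest value of the array in all 4 BSA arrays. Median intensity as deposited was 96.9 to 203 in BSA arrays and 191 to 287 in HBSS arrays. The 8 arrays were not alike within the BSA group. On the first principal component (33.8% of the variance) BSA replicates 3 and 4 lay at 47.0 and 34.2 and the other 6 arrays between -28.5 and -0.15. BSA replicate 1 had the highest place on the second component (36.6, 19.3% of the variance). The 3' to 5' ratio of Gapdh, a measure of RNA integrity, was 1.49 in BSA replicate 4 and 0.913 to 1.03 in the other 7 arrays. A spiked hybridization control, read as its 3' over its 5' probe set, gave 1.62 and 1.66 in BSA replicates 1 and 2, 0.939 and 1.06 in BSA replicates 3 and 4, and 1.13 to 1.22 in the HBSS arrays. Arrays were split by this ratio alone, at 1.4, into a high and a low technical set. BSA replicates 3 and 4 fell into the low set with every HBSS array, though their ratios lay under the HBSS range. The difference of these 2 arrays from HBSS is given below as the within-set value. It is not a matched check, since these 2 arrays also stood apart from HBSS on the first component.

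The difference between albumin and vehicle at 12 h was small for most genes. Of 22626 probe sets, 91 were higher after BSA (0.402%) and 176 lower (0.778%), 267 in all (1.18%), at an adjusted p under 0.05 (limma, Benjamini-Hochberg over all probe sets). Among them 2 of the higher and 8 of the lower changed at least 2-fold, and the median log2 fold was 0.44 of the higher and -0.56 of the lower. With 1 probe set, the brightest, for each of 12393 genes, 61 genes were higher (0.492%) and 84 lower (0.678%). The median log2 fold of all genes was 0.03, and 56.3% of genes had a positive one.

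**Figure D1:**
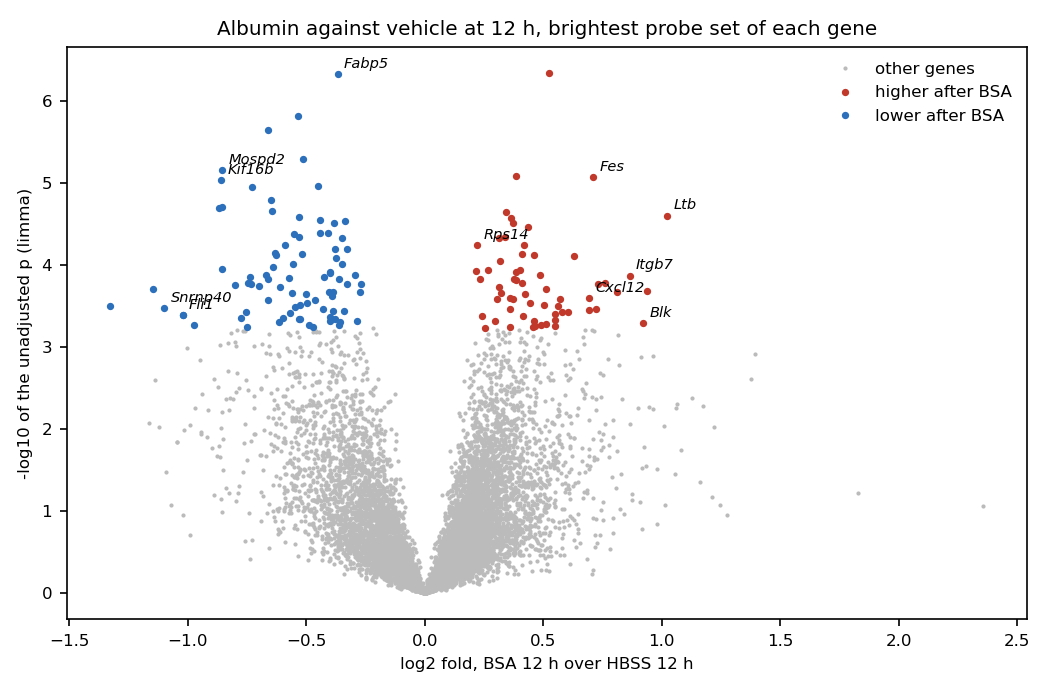
Each point is the brightest probe set of 1 gene, placed by its log2 fold of BSA 12 h (n = 4) over HBSS 12 h (n = 4) on the x axis and by -log10 of the unadjusted limma p on the y axis. The 61 genes that passed as higher (red) and the 84 that passed as lower (blue) mostly lay between 0.2 and 1 in size on the log2 scale, and larger differences among the grey genes came with a wide spread between arrays.

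The number of calls depended on which arrays were in the fit. The fit took its spread from all 21 arrays, and with the 8 arrays alone 1 probe set passed. With 1 array left out, 149, 644, 86 and 135 probe sets passed without BSA replicates 1, 2, 3 and 4, and 238, 12, 75 and 115 without HBSS replicates 1, 2, 3 and 4. Within the technical set that BSA replicates 3 and 4 share with HBSS, 141 probe sets passed, 23 of them among the 267. All 267 kept their sign in each of these fits. This was nearly fixed in advance, since they were chosen on the same arrays. The groups did not overlap for 90 of the 91 higher and 171 of the 176 lower probe sets. Of the 61 higher genes, the top value of the 8 arrays lay in BSA replicate 4 for 29 and in BSA replicate 3 for 17. Of the 84 lower genes, the lowest value lay in BSA replicate 3 for 46. Each BSA array by itself still differed from the HBSS mean, by a median of 0.38 to 0.48 over the higher genes and of -0.63 to -0.35 over the lower genes, as the choice of these genes requires on average. Rises and falls are given against the HBSS 12 h arrays alone. For some genes the HBSS 12 h mean also lay outside those of MACA 12 h, BSA 3 h and HBSS 3 h, as given with the fungal antigen below.

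Several of the highest genes are known from lymphocytes or from leukocytes more widely. Ltb codes for lymphotoxin beta, a membrane-bound ligand of the TNF family that lymphocytes use to organise lymphoid tissue. Its level was 8.64, 8.07, 8.30 and 8.81 in BSA lungs, against 7.57, 7.19, 7.61 and 7.36 in HBSS lungs. The lowest BSA array lay above every HBSS array. Ltb averaged 8.46 ± 0.33 after BSA and 7.43 ± 0.19 after HBSS (SD, n = 4 each), a 2.03-fold rise (log2 fold 1.02 ± 0.18 SE, adjusted p = 0.0158), and the within-set value was 1.12. It was the largest rise among the called genes, and its call was lost only when HBSS replicate 2 was left out (adjusted p = 0.0703) among the 8 fits that left out 1 array.

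Blk, a Src-family kinase of the B cell receptor pathway, had 6.65, 6.50, 6.98 and 7.04 in BSA lungs, against 6.36, 5.51, 5.77 and 5.84 in HBSS lungs. The groups did not overlap, though HBSS replicate 1 lay close to BSA replicate 2. The rise was 1.89-fold (log2 fold 0.92 ± 0.21, adjusted p = 0.0469). Itgb7, the integrin beta 7 chain that guides lymphocytes into mucosal tissue, had 7.62, 7.34, 7.05 and 7.29 after BSA, against 6.67, 6.50, 6.27 and 6.40 after HBSS. All 4 BSA arrays lay above all 4 HBSS arrays, with a 1.82-fold rise (log2 fold 0.86 ± 0.17, adjusted p = 0.0281) and a within-set value of 0.71. Pik3cd, the p110 delta catalytic subunit through which antigen receptors signal in leukocytes, had 7.96, 7.64, 8.07 and 8.12 in BSA lungs and 7.58, 7.42, 7.28 and 7.25 in HBSS lungs. Its groups were apart by a narrow margin, between BSA replicate 2 and HBSS replicate 1, and the rise was 1.48-fold (log2 fold 0.57 ± 0.12, adjusted p = 0.0347). Lpxn, a paxillin-like adaptor of haematopoietic cells, rose 1.48-fold (adjusted p = 0.0375), and Lrmp, a membrane protein of the endoplasmic reticulum in lymphoid cells, 1.46-fold (adjusted p = 0.0487). The calls of Blk, Itgb7, Pik3cd, Lpxn and Lrmp held in 1 to 3 of the 8 fits with 1 array left out, with adjusted p up to 0.173, for Blk without HBSS replicate 2. With the replicate number as a block Lrmp did not pass (adjusted p = 0.0563).

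Of the 19 measured macrophage and monocyte markers none passed as higher and 1, Fabp5, passed as lower (background 0.492% and 0.678%). Their median was 0.13, with 12 positive, and -0.03 in the within-set comparison. Outside that list, some single genes known from myeloid cells rose. Fes codes for a cytoplasmic tyrosine kinase of the myeloid lineage. It had 8.32, 8.00, 8.05 and 7.90 in BSA lungs, against 7.42, 7.05, 7.50 and 7.45 in HBSS lungs. No BSA array reached down to the HBSS arrays, and the rise was 1.64-fold (log2 fold 0.71 ± 0.11, adjusted p = 0.0103, within-set value 0.62). Pld4, an endolysosomal exonuclease that degrades single-stranded nucleic acid in phagocytes and B cells, had 8.45, 8.32, 8.20 and 8.13 after BSA and 7.87, 7.58, 7.57 and 7.55 after HBSS. HBSS replicate 1 stood above the other HBSS arrays but below every BSA array, and the rise was 1.55-fold (adjusted p = 0.0225). Apobec1, a cytidine deaminase that edits messenger RNA, had 8.11, 7.88, 8.10 and 8.51 in BSA lungs, against 7.49, 7.36, 7.51 and 7.32 in HBSS lungs. Its arrays did not overlap between the groups, and it rose 1.66-fold (adjusted p = 0.0303). Tlr1, a partner of Tlr2 in sensing bacterial lipopeptides, and Samhd1, which hydrolyses deoxynucleotides and restricts viruses, were chosen after their values were seen. They rose 1.42-fold (adjusted p = 0.0369) and 1.43-fold (adjusted p = 0.0474), the Samhd1 call being lost with the replicate block (adjusted p = 0.0639). Of the 8 fits with 1 array left out, Fes held in 7, Pld4 in 4, Tlr1 in 3, and Apobec1 and Samhd1 in 2, and the largest adjusted p was 0.14, for Samhd1 without HBSS replicate 2.

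Cxcl12, the stromal chemokine that binds Cxcr4 and holds lymphocytes and progenitors in tissue, was the 1 of 29 measured chemokine genes that passed (background 0.492% higher). Its level was 10.71, 10.80, 11.05 and 10.85 in BSA lungs, against 10.28, 10.25, 10.01 and 10.09 in HBSS lungs. The groups were well apart, and the rise was 1.62-fold (log2 fold 0.69 ± 0.15, adjusted p = 0.0343, within-set value 0.79), with another probe set of the gene also higher. Its call held in 2 of the 8 fits with 1 array left out (adjusted p up to 0.0989, without HBSS replicate 2).

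The remaining higher genes were of varied function. Kctd20 had 9.68, 9.78, 9.95 and 10.11 in BSA lungs and 9.18, 9.12, 9.01 and 9.17 in HBSS lungs, with no overlap, and rose 1.69-fold (adjusted p = 0.0303). Rbpjl, a transcription factor related to the Notch effector RBP-J, rose 1.65-fold (adjusted p = 0.0396), but its 1 other probe set had the opposite sign. BC029722 and Arhgef40, of which no role is given here, rose 1.52-fold and 1.49-fold, and Hdac6, the tubulin deacetylase of the cytoplasm, rose 1.46-fold. Of 2 other Arhgef40 probe sets 1 had the opposite sign. None of these 3 genes passed with the replicate block (adjusted p = 0.0563, 0.0541 and 0.0635). Olfm1, a secreted olfactomedin glycoprotein picked after its values were seen for the lowest p, had 9.03, 8.93, 9.04 and 8.97 after BSA, against 8.42, 8.33, 8.63 and 8.50 after HBSS. Its BSA arrays lay within 0.11 of one another, the rise was 1.44-fold (adjusted p = 0.00359), and the call held in all 8 fits with 1 array left out, though 1 of its 2 other probe sets had the opposite sign. Kctd20, Rbpjl, BC029722, Arhgef40 and Hdac6 held in 2 or 3 of those fits.

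Promoter windows of 4 of the higher leukocyte genes are shown because each holds the letters GAGGAA, the core bound by the ETS factor PU.1 of myeloid and B cells. Each window runs from 250 bases before to 50 after the RefSeq start of the gene (GRCm38.p6), 5' to 3' on the strand of the gene, and GAGGAA or its complement TTCCTC stands in capitals. In Ltb a full match to the NF-kB decamer of the immunoglobulin kappa enhancer, here on the other strand, is in capitals too.
Ltb, chr17:35194257-35194556, plus strand: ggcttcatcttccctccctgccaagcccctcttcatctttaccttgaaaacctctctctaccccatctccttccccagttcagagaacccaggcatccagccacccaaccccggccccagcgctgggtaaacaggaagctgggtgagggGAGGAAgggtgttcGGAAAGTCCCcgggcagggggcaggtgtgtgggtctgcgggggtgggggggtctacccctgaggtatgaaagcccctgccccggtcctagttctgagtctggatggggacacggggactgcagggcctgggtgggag
Itgb7, chr15:102231886-102232185, minus strand: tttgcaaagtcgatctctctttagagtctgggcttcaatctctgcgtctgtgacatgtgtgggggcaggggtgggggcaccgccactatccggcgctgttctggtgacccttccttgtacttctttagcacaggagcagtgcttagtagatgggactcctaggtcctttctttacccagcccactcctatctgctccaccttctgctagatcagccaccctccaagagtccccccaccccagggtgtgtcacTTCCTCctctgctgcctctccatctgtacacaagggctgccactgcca
Pld4, chr12:112760405-112760704, plus strand: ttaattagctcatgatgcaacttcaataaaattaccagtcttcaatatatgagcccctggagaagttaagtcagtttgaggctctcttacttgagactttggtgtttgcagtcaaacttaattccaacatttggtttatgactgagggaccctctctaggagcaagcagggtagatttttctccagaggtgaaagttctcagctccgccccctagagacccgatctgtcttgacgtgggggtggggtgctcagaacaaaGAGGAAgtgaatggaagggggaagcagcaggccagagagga
Fes, chr7:80387897-80388196, minus strand: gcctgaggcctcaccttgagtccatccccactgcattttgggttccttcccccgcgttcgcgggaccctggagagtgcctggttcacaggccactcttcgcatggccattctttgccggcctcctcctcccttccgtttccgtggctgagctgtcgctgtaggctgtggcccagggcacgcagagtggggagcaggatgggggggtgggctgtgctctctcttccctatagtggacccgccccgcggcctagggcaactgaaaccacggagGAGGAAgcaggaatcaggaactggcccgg
The GAGGAA letters began at -101 from the start in Ltb and 3, 10 and 22 bases into the transcript in Itgb7, Pld4 and Fes. On either strand they were in 9289 of 32851 promoter windows (28.3%). By gene, they were in 22 of the 49 higher genes with a window (44.9%), in 21 of 71 lower genes (29.6%) and in 3067 of 9887 measured genes (31.0%). The Apobec1, Pik3cd, Lpxn and Cxcl12 windows did not hold them, and Blk and Lrmp had no window. The NF-kB decamer was in 51 of the windows (0.155%), and among the 61 higher genes in that of Ltb. Matches of letters are a description, and binding was not measured.

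**Figure D2:**
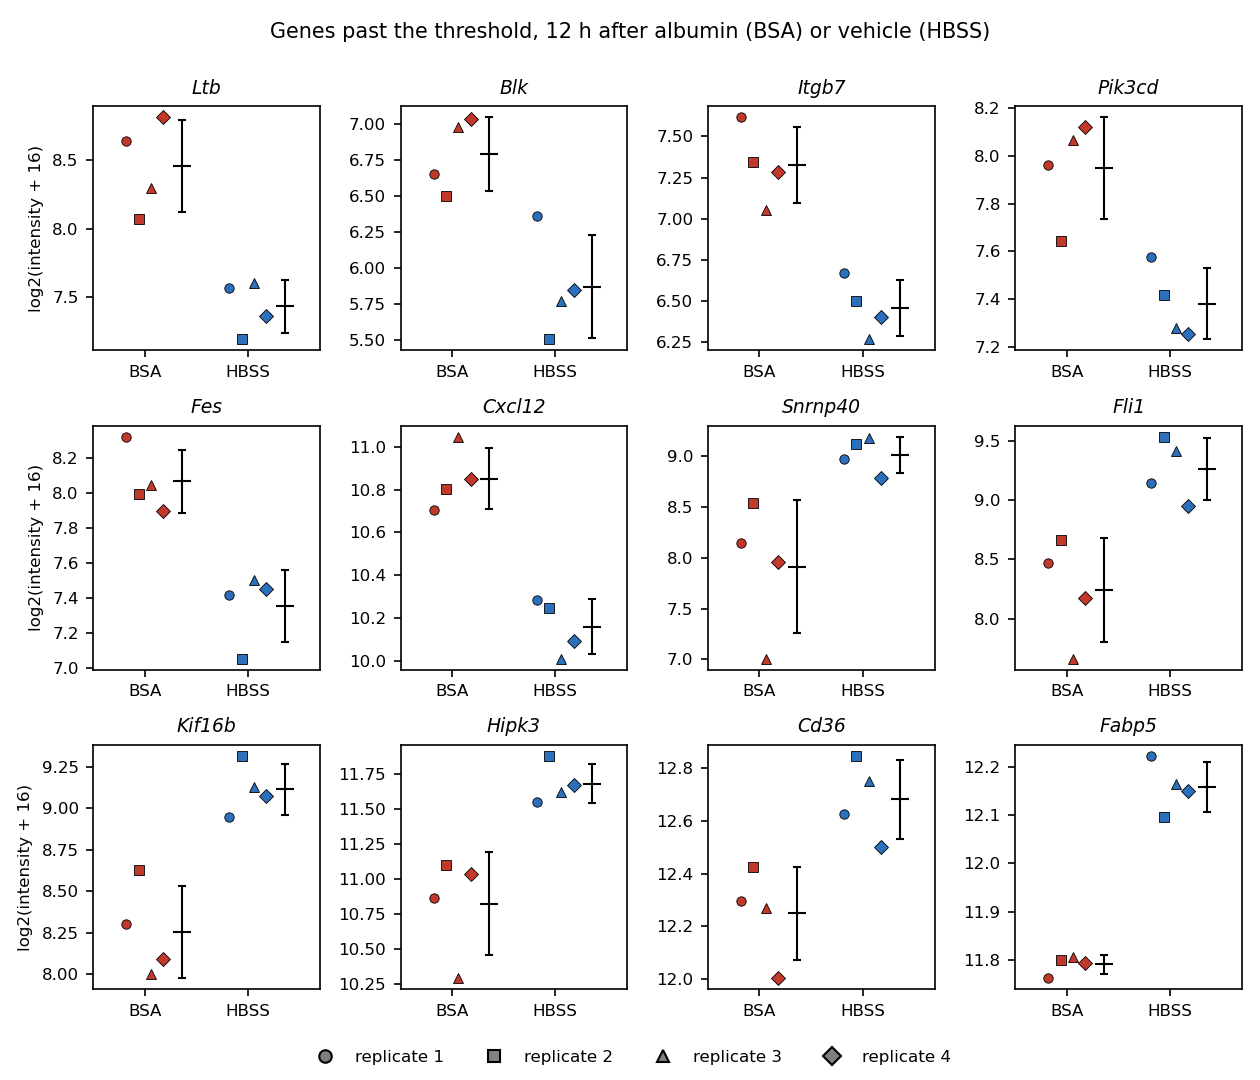
Each panel gives 1 gene, with BSA arrays (red) left of HBSS arrays (blue), 12 h after treatment, on log2(intensity + 16), and marker shapes give the replicate number. The bar beside each group is its mean ± SD (n = 4). Ltb, Blk, Itgb7, Pik3cd, Fes and Cxcl12 were higher and Snrnp40, Fli1, Kif16b, Hipk3, Cd36 and Fabp5 lower after BSA with no overlap, and BSA replicate 3 was the lowest array for Snrnp40, Fli1, Kif16b and Hipk3.

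Markers of lymphocytes mostly had positive log2 folds, as did those of several other cell types, and few members of any list passed the test. Of 43 lists of genes and markers, 37 had no member past the threshold, and 7 of the 773 different genes measured in them passed, against 1.17% of all genes. B cell and plasma cell markers had the highest median log2 fold of the lists (0.66, against 0.03 over all genes). Of 14 measured, 13 were positive, 6 did not overlap between the groups (background 4.37% of all genes higher without overlap), 8 had an unadjusted p under 0.05 as higher (background 9.72%), and 1, Blk, passed (background 0.492%). Cd22, an inhibitory co-receptor of B cells that like Cd79b was picked after its values were seen, had 8.92, 8.77, 8.64 and 8.78 after BSA, against 8.51, 8.13, 8.07 and 7.68 after HBSS. All BSA arrays were above all HBSS arrays, with a log2 difference of 0.68 (adjusted p = 0.0888). The antigen receptor chain Cd79b had 8.76, 8.39, 9.18 and 9.16 in BSA lungs and 8.52, 8.07, 8.00 and 7.57 in HBSS lungs, where BSA replicate 2 lay below HBSS replicate 1 (adjusted p = 0.108). Ighm, the constant chain of IgM, ran from 9.80 to 11.38 after BSA and from 9.18 to 9.78 after HBSS (adjusted p = 0.248). Of its 10 other probe sets 3 had the opposite sign. Fcer2a, the low-affinity IgE receptor of B cells, differed by 0.90 (adjusted p = 0.118). The median of the list was 0.77 in the within-set comparison and 0.50 to 0.73 with 1 array left out.

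T cell and NK cell markers had a median of 0.33, with 21 of 23 positive, 4 without overlap (background 4.37%) and none passed. Cd3d, a chain of the T cell receptor complex, had 8.21, 7.99, 7.49 and 7.98 in BSA lungs, against 7.53, 7.24, 6.69 and 5.96 in HBSS lungs. The arrays overlapped and HBSS replicate 4 was the lowest (log2 difference 1.06, adjusted p = 0.113). MHC class II genes had a median of 0.25, with 9 of 10 positive, H2-DMa at 0.39 (adjusted p = 0.114) and H2-Oa at 0.72 (adjusted p = 0.107). Interferon-stimulated genes had a median of 0.29, with 24 of 27 positive, 5 without overlap (background 4.37%) and 9 at an unadjusted p under 0.05 as higher (background 9.72%). Among them the interferon-induced GTPase Igtp had 9.30, 9.28, 10.01 and 9.61 after BSA and 8.93 to 9.04 after HBSS. All BSA arrays were higher, yet the adjusted p was 0.113. None passed. Irf4, a factor of plasma cells and dendritic cells, lay under the noise level in every HBSS array and was at least 1.26-fold higher after BSA, just outside the threshold (adjusted p = 0.0533), with 1 other probe set of the opposite sign. Dendritic cell markers had 13 of 15 positive and a median of 0.26, and chemokines 23 of 29 and 0.34, which was 0.12 without BSA replicate 1. Lists of cell types outside the immune system were positive too: cardiac muscle markers in 21 of 24 (median 0.18, within-set value 0.39) and fat markers in 11 of 13 (0.23, within-set value 0.73). Eosinophil, basophil and mast cell markers were positive in 13 of 15 (0.19), though 11 lay within noise on all 8 arrays. With the technical set as a term, 2654 of 22626 probe sets passed, 1095 of them higher. In that fit 5 of 14 B cell genes and 0 of 23 T cell and NK cell genes were higher. Higher too were 5 of 27 interferon-stimulated and 3 of 10 MHC class II genes. The same fit had 5 of 31 oxidative phosphorylation genes and 3 of 15 dendritic cell markers higher, with 1 lower in each. With the replicate block added, 801 of 22626 probe sets passed as higher. So did 7 B cell, 4 T cell and NK cell, 4 interferon-stimulated, 3 MHC class II, 3 oxidative phosphorylation and 1 dendritic cell genes. Without scaling between arrays the median of all genes moved to -0.45, and the lists of B cell, T cell and NK cell, MHC class II and interferon-stimulated genes had medians of 0.10, -0.17, -0.26 and -0.27, above that of all genes.

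In whole lung, a larger number of cells of a type and more RNA per cell cannot be told apart. Summed B cell marker intensity ran from 2946 to 5881 in BSA arrays and from 1717 to 2812 in HBSS arrays, with no overlap. Such a sum gives most weight to bright genes such as Ighm, so it does not speak for the whole list. For T cell and NK cell markers it ran from 3457 to 4265 in BSA arrays and from 1780 to 3561 in HBSS arrays, and HBSS replicate 1 (3561) reached into the BSA range. Lymphoid tissue attached to the lung is another place of such RNA. The thymus and lymph node list summed to 699 to 1323 in BSA arrays and 610 to 722 in HBSS arrays, and 8 of its 12 measured genes lay within noise on all 8 arrays. The defining thymus genes Rag1, Rag2, Dntt and Ptcra and the lymph node gene Glycam1 were among these 8. Cxcl13, a chemokine of B cell follicles, had 8.06, 7.97, 9.63 and 7.73 in BSA lungs and 7.68, 7.38, 7.89 and 7.84 in HBSS lungs. It was high in BSA replicate 3, the array that also had the highest Ighm level (11.38), and its part in the B cell values was not tested.

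**Figure D3:**
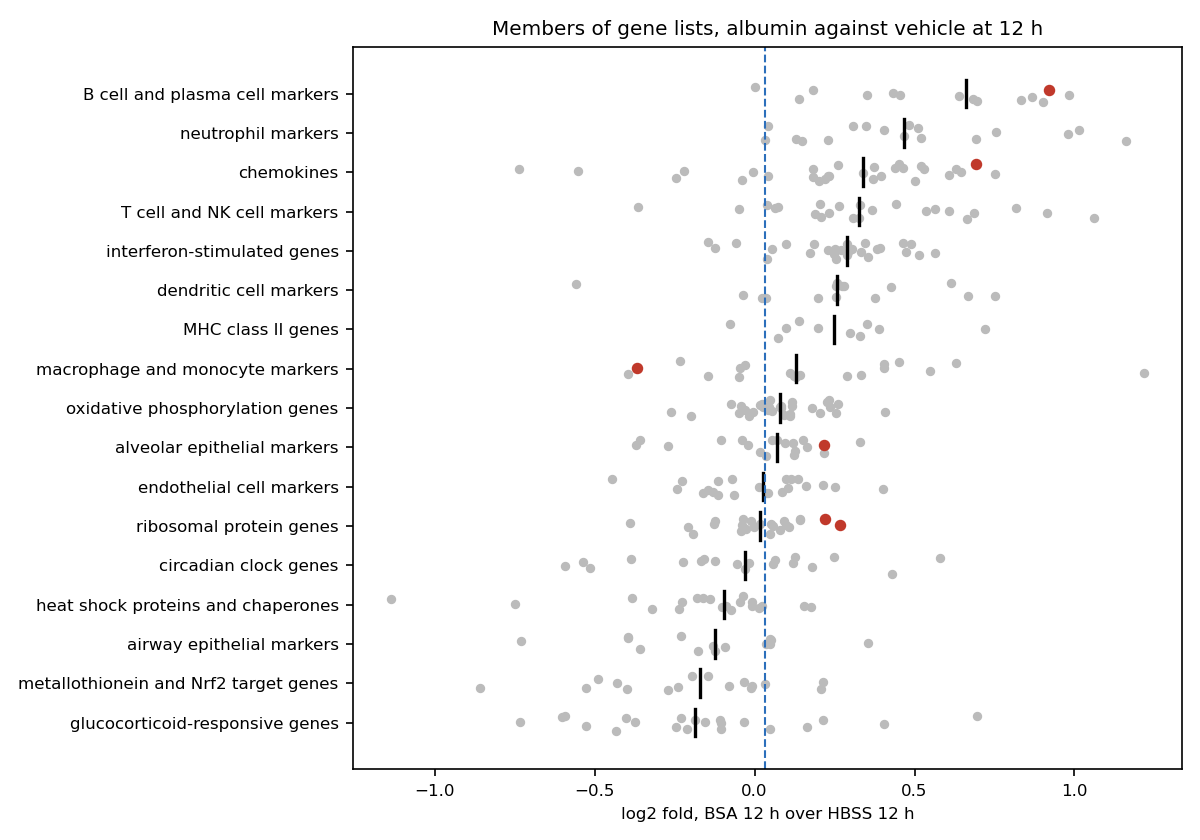
Each point is 1 measured gene of a list, placed by its log2 fold of BSA 12 h over HBSS 12 h, with genes that passed in red, the list's median as a black bar and the median of all genes (0.03) as a dashed line. The B cell list lay farthest to the right (median 0.66) with 1 red point, and the glucocorticoid-responsive list farthest to the left of those drawn (median -0.19) with none.

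The largest falls among the named genes included proteins that work in the nucleus, a group that was not counted over all genes. Snrnp40, a protein of the U5 particle of the spliceosome, had 8.15, 8.54, 7.01 and 7.96 after BSA, against 8.97, 9.12, 9.18 and 8.78 after HBSS. BSA replicate 3 was far below the rest and the groups did not overlap. Snrnp40 fell 2.14-fold (log2 fold -1.10 ± 0.24, adjusted p = 0.0391), though its 1 other probe set had the opposite sign. Fli1, an ETS factor of endothelium and blood cells, had 8.47, 8.67, 7.66 and 8.17 in BSA lungs and 9.14, 9.54, 9.42 and 8.95 in HBSS lungs. Here too BSA replicate 3 was lowest, the fall was 2.03-fold (adjusted p = 0.0426), and the 1 other probe set had the opposite sign. C1d, a cofactor of the nuclear exosome that trims RNA, had 8.91, 9.21, 8.78 and 8.83 in BSA lungs, against 9.75, 9.93, 9.92 and 9.60 in HBSS lungs. Its 4 BSA arrays were close together and all lower, with a 1.82-fold fall (log2 fold -0.87 ± 0.15, adjusted p = 0.0158), and both other probe sets were lower as well. The C1d mean of HBSS 12 h (9.80) also lay above those of HBSS 3 h (9.13), BSA 3 h (9.18) and MACA 12 h (9.12). Hipk3, a homeodomain-interacting protein kinase, fell 1.81-fold (adjusted p = 0.0157), and Tob1, an antiproliferative protein that recruits deadenylases to messenger RNA, 1.74-fold (adjusted p = 0.0303). Alyref, an adaptor for nuclear export of messenger RNA, and Hnrnpr, an RNA-binding protein, were picked after their values were seen and fell 1.58-fold (adjusted p = 0.00719) and 1.30-fold (adjusted p = 0.021). Of the 8 fits with 1 array left out, Alyref held in 8, C1d and Hipk3 in 7, Hnrnpr in 5 and Snrnp40, Fli1 and Tob1 in 1, with adjusted p up to 0.158, for Fli1 without HBSS replicate 2.

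Some other named lower genes act in membrane traffic, a group that was not counted over all genes. Kif16b, a kinesin that carries early endosomes, had 8.30, 8.63, 8.00 and 8.09 in BSA lungs, against 8.95, 9.32, 9.13 and 9.07 in HBSS lungs. The groups were apart, with a 1.82-fold fall (log2 fold -0.86 ± 0.14, adjusted p = 0.0103) and a within-set value of -1.07. Ap2a1, the alpha subunit of the AP-2 clathrin adaptor of endocytosis, had 6.68, 6.56, 6.27 and 5.61 after BSA, against 7.27, 7.24, 7.47 and 7.22 after HBSS. BSA replicate 4 was lowest, inside the noise level, and the fall was 2.03-fold (adjusted p = 0.0425). Mospd2, a tether between the endoplasmic reticulum and other organelles, had 9.75, 10.12, 9.47 and 9.75 in BSA lungs and 10.41, 10.91, 10.58 and 10.61 in HBSS lungs. All BSA arrays were lower, by 1.81-fold (adjusted p = 0.0103). Rab40b, a small GTPase, lay within noise in every BSA array and was at least 1.19-fold lower (adjusted p = 0.0315), and its 1 other probe set had the opposite sign. The syntaxin Stx6, a SNARE of the trans-Golgi network, fell 1.51-fold (adjusted p = 0.0446), while 3 other probe sets of it had the opposite sign. This Stx6 call was not refitted with arrays left out. Further traffic and lysosome genes, picked after their values were seen, were Sec23a of the COPII coat (1.55-fold lower, adjusted p = 0.0223), Rab6a and Arf4 of the Golgi (1.32-fold, adjusted p = 0.0434, and 1.27-fold, adjusted p = 0.0405; the 1 other Rab6a probe set had the opposite sign), the lysosomal membrane protein Lamp2 (1.26-fold, adjusted p = 0.0164) and the lysosomal protease Ctsl (1.30-fold, adjusted p = 0.0228). Of the 8 fits with 1 array left out, Kif16b, Mospd2 and Lamp2 held in 7, Sec23a in 6, Ctsl in 4, Ap2a1, Rab40b and Arf4 in 2 and Rab6a in 1, with adjusted p up to 0.158, for Rab6a without HBSS replicate 2.

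Among ubiquitin-conjugating enzymes, which were not counted as a family, Ube2b, Ube2e1 and Ube2e2 were lower. Ube2b had 10.27, 10.24, 10.05 and 10.11 in BSA lungs, against 10.58, 10.75, 10.68 and 10.70 in HBSS lungs. The highest BSA array lay under the lowest HBSS array, and the fall was 1.43-fold (adjusted p = 0.00964). Ube2e1 fell 1.37-fold (adjusted p = 0.0106) and Ube2e2 1.31-fold (adjusted p = 0.0335). These 3 enzymes and the next gene were likewise picked after their values were seen. Nfe2l2, the master factor of the antioxidant response known as Nrf2, had 10.26, 10.40, 10.50 and 10.35 after BSA and 10.70, 10.82, 10.86 and 10.89 after HBSS, a 1.36-fold fall without overlap (adjusted p = 0.0164). The calls of Ube2b, Ube2e1 and Nfe2l2 held in 7 of the 8 fits with 1 array left out and that of Ube2e2 in 1, with adjusted p up to 0.0898. Other named lower genes were Gem, a GTPase of the RGK family that inhibits calcium channels (1.81-fold, adjusted p = 0.0274), the serine protease Prss23 (1.67-fold, adjusted p = 0.0285), Tmem109 (1.71-fold, adjusted p = 0.0446), Tmem123 (1.69-fold, adjusted p = 0.0409) and Dzip1, a protein of ciliary assembly (1.66-fold, adjusted p = 0.0106). Capn12, a calpain protease, lay within noise in every BSA array and was at least 1.07-fold lower (adjusted p = 0.0478, or 0.0617 with the replicate block). Dzip1 held in 7 of the 8 fits, Gem in 4, Prss23 in 3, Tmem123 in 2, and Tmem109 and Capn12 in 1. Of the other probe sets of Tmem109 (4) and Dzip1 (3), 1 each had the opposite sign.

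The naming rule took 35 called genes for their 12 h difference or as list members. Of these, the 1 whose call held in all 8 fits with 1 array left out handles lipid. Fabp5, a fatty acid carrier of epithelium, macrophages and endothelium, had 11.76, 11.80, 11.81 and 11.79 in BSA lungs, against 12.22, 12.10, 12.16 and 12.15 in HBSS lungs. The BSA arrays differed by less than the gap to the nearest HBSS array. Fabp5 averaged 11.79 ± 0.020 after BSA and 12.16 ± 0.052 after HBSS (SD, n = 4 each), a 1.29-fold fall (log2 fold -0.37 ± 0.05, adjusted p = 0.00359). Its within-set value was -0.36. Cd36, the scavenger receptor that takes up fatty acids, had 12.30, 12.43, 12.27 and 12.00 after BSA and 12.63, 12.84, 12.75 and 12.50 after HBSS. The groups lay side by side without overlap, with a 1.35-fold fall (adjusted p = 0.0398), and its 2 other probe sets disagreed in sign. It was the 1 of 25 measured genes in the list of fatty acid uptake and lipid storage that passed (background 0.678% lower), a list that does not hold Fabp5, which was counted among the macrophage markers, and its call held in 2 of the 8 fits (adjusted p up to 0.152, without HBSS replicate 2). Sptssa, a small subunit of serine palmitoyltransferase, the first enzyme of sphingolipid synthesis, was picked after its values were seen. It had 10.39, 10.73, 10.52 and 10.37 in BSA lungs and averaged 11.04 in HBSS lungs. Its HBSS arrays were close together and all higher, with a 1.45-fold fall after BSA (adjusted p = 0.00653), which held in all 8 fits.

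Among bright housekeeping genes the differences were slight. Of 23 measured ribosomal protein genes, 2 passed, both higher (background 0.492%): Rps14 by 1.17-fold (adjusted p = 0.0199) and Rpsa by 1.20-fold (adjusted p = 0.0274), each with 1 other probe set of the opposite sign and each negative without scaling between arrays (-0.15 for Rpsa and -0.21 for Rps14). Rpl37 had a log2 difference of -0.39 (adjusted p = 0.0781) and Rpl13a of -0.21 (adjusted p = 0.151), and the median of the list was 0.02. Sftpc passed by 1.16-fold (adjusted p = 0.0274), but its 4 BSA values were all 13.76, the highest value that normalization allows, reached in 12 of the 21 arrays. Its size is limited by this ceiling, and its 1 other probe set had the opposite sign. The Sftpc call held in 3 of the 8 fits with 1 array left out, that of Rps14 in 4 and that of Rpsa in 2. Oxidative phosphorylation genes had 23 of 31 positive, a median of 0.08 and none passed, with Ndufa4, a subunit of the respiratory chain, at 0.41 (adjusted p = 0.0856).

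No list of stress, clock or hormone response genes had a member past the threshold. Heat shock proteins and chaperones had 16 of 20 at or below 0 and a median of -0.10. The inducible Hsp70 gene Hspa1a had 6.73, 7.23, 6.89 and 7.44 in BSA lungs, against 7.65, 8.38, 8.00 and 8.80 in HBSS lungs. The arrays did not overlap, and the log2 difference of -1.14 missed the threshold (adjusted p = 0.0856), though it passed with the replicate block (adjusted p = 0.0483). Glucocorticoid-responsive genes had a median of -0.19, with 5 of 21 positive. Tsc22d3, a glucocorticoid-induced leucine zipper, was at -0.73 (adjusted p = 0.178). Klf4, a Krüppel-like factor, was at -0.89 (adjusted p = 0.085, or 0.0455 with the block). Metallothionein and Nrf2 target genes had 3 of 16 positive, with a median of -0.17 that was -0.63 in the within-set comparison and -0.40 to -0.02 with 1 array left out. Gsta3, a glutathione transferase, was at -0.53 (adjusted p = 0.0591). Circadian clock genes had a median of -0.03, with Per1 at -0.59 (adjusted p = 0.409). Lyve1, a hyaluronan receptor of lymphatic endothelium, was at -0.45 (adjusted p = 0.0519).

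Albumin was also set against vehicle at 3 h, where 34 probe sets passed (0.15%). Of these 34, 0 were among the 267 of 12 h, near the 1.18% that the 267 make of all probe sets. In the test of the change between the times, 114 probe sets passed (0.504%), 35 (0.155%) with a more positive difference at 12 h and 79 (0.349%) with a more negative one, and 177 passed with the replicate block. All 6 arrays of 3 h were in the high technical set, with control ratios of 1.63 to 1.91, and the part of the set in the change was not tested beyond the fit with the set as a term (2180 probe sets). Gjb2 codes for the gap junction protein connexin 26. At 3 h it averaged 8.28 ± 0.07 in BSA lungs and 6.52 ± 0.32 in HBSS lungs (SD, n = 3 each), and at 12 h 6.98 ± 0.17 in BSA lungs and 6.98 ± 0.30 in HBSS lungs (SD, n = 4 each). It rose at 3 h (adjusted p = 0.00145) and the groups overlapped at 12 h, with a change of -1.76 ± 0.26 (SE, adjusted p = 0.0138). Mboat1, a lysophospholipid acyltransferase, had a difference of 1.47 at 3 h and 0.00 at 12 h (change -1.47, adjusted p = 0.0288), and Fgfbp1, which releases fibroblast growth factors from matrix, 1.11 and -0.18 (change -1.29, adjusted p = 0.0138). For Mal, a raft protein of apical transport, the difference was 0.77 at 3 h and -0.30 at 12 h (change -1.07, adjusted p = 0.0137), with 1 other probe set of the opposite sign at 12 h. Spire2, an actin nucleator, Mpzl2, an adhesion protein of epithelium, and Stx6 went the same way, with changes of -1.90, -1.22 and -1.14. Hipk3 differed by 0.24 at 3 h and -0.86 at 12 h (change -1.10, adjusted p = 0.0411).

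For other genes the difference was more positive at 12 h than at 3 h. Pld4 differed by -0.43 at 3 h and 0.63 at 12 h (change 1.06 ± 0.18, adjusted p = 0.0254), and its endolysosomal relative Pld3 by -0.40 and 0.42 (change 0.82, adjusted p = 0.043). Fes differed by -0.14 and 0.71 (change 0.85, adjusted p = 0.0411). Ing1, a reader of histone H3 marks, differed by -0.39 at 3 h and 0.42 at 12 h (change 0.81, adjusted p = 0.0218). Fam50a, a nuclear protein of splicing, Metap1d, a mitochondrial methionine aminopeptidase, and Copz2, a COPI coat subunit, changed by 0.81, 1.06 and 0.70. The hair keratin Krt83 changed by 1.43 (adjusted p = 0.0479, or 0.0515 with the block), on group means within noise at 12 h. With each of the 14 arrays of these 4 groups left out in turn, 17 to 393 probe sets passed, the fewest without HBSS 3 h replicate 1 and the most without BSA 12 h replicate 2. The calls of Gjb2, Fgfbp1 and Mal held in all 14 of these fits, and those of the other 13 named genes in 2 to 11.

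**Figure D4:**
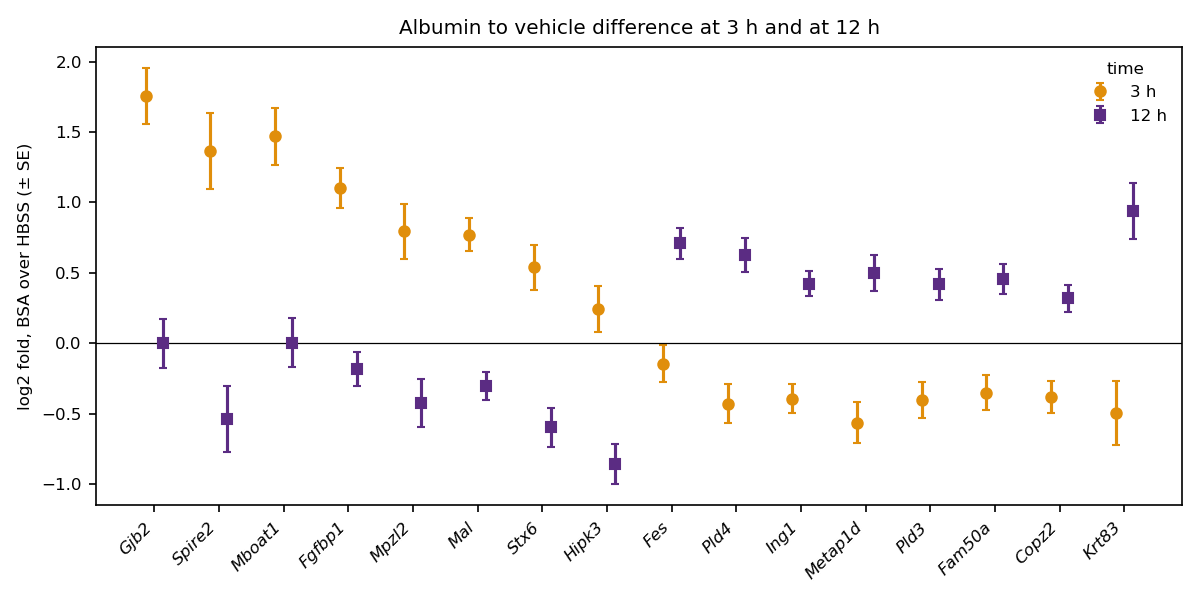
For each of 16 genes with a change between the times, the log2 fold of BSA over HBSS is given at 3 h (circles, n = 3 and 3) and 12 h (squares, n = 4 and 4) with its SE. Gjb2 had 1.76 at 3 h and 0.00 at 12 h, while Fes and Pld4 lay under 0 at 3 h and above 0.6 at 12 h.

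Some genes had a wide spread within the groups. By the naming rule, genes were taken that stood highest in BSA replicate 1, so their height there is a description. Over whole lists, BSA replicate 1 minus the mean of the other 3 BSA arrays had a median of 0.76 for neutrophil markers, 0.59 for chemokines, 0.53 for acute phase genes, 0.23 for proinflammatory cytokines and 0.02 for interferon-stimulated genes, against -0.04 for all genes. The highest median of the lists was 0.85, for metallothionein and Nrf2 target genes. Macrophage and monocyte markers had 0.54, unfolded protein response and Atf4 genes 0.38, and mesothelial markers -0.93. Acod1, the enzyme that makes itaconate in activated macrophages, had 8.16, 4.00, 4.00 and 4.18 in BSA lungs, against 4.00, 4.08, 5.12 and 4.00 in HBSS lungs. BSA replicate 1 was the 1 array of 8 above noise. Cxcl2, a neutrophil chemokine, had 9.21, 5.94, 5.36 and 6.26 after BSA, against 5.99, 6.36, 7.38 and 5.47 after HBSS. Saa3, an acute phase protein of lung, had 11.82, 8.12, 9.05 and 9.71 after BSA and 8.01, 7.92, 10.74 and 6.92 after HBSS (adjusted p = 0.437). In both, HBSS replicate 3 came next to BSA replicate 1. Timp1, an inhibitor of matrix proteases, had 11.10, 8.79, 8.53 and 8.88 in BSA lungs, against 8.14, 7.94, 9.25 and 7.74 in HBSS lungs (adjusted p = 0.262). Neutrophil markers were positive in 17 of 17 with a median of 0.47 and none passed, and the median was 0.08 without BSA replicate 1. Cxcl1, Cxcl5, Ccl3 and Slfn4 also had their highest value in BSA replicate 1, at 9.44, 8.93, 8.00 and 10.13. The neutrophil granule gene Ngp instead stood highest in BSA replicate 3 (8.93, against 6.09 in replicate 1).

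Another group of genes followed the replicate number in both treatments. Upk3b, a mesothelial uroplakin, had 5.32, 6.46, 8.77 and 9.18 in BSA lungs, against 5.01, 4.00, 9.54 and 8.35 in HBSS lungs. Replicates 3 and 4 were the high ones in both groups. Cldn10, a claudin of airway epithelium, had 6.11, 6.34, 9.52 and 8.09 after BSA and 7.18, 7.82, 8.68 and 9.29 after HBSS, in the same order of pairs. Lrrc26 and Ugt3a1 were likewise higher in replicates 3 and 4 of both groups. The reverse was seen for Ccl20, a chemokine for Ccr6 cells, which had 8.45, 7.70, 4.65 and 4.00 in BSA lungs, against 7.97, 8.01, 5.28 and 6.49 in HBSS lungs. Sprr1a, a cornified envelope protein, had 8.21, 8.01, 5.23 and 5.72 after BSA and 7.45, 7.40, 5.19 and 5.06 after HBSS. Trib3, a pseudokinase of the Atf4 response, ran in the same direction, with 8.09, 8.07, 6.72 and 6.63 after BSA and 7.60, 7.32, 5.21 and 5.75 after HBSS. None of these 7 genes differed between the treatments past the threshold, with adjusted p from 0.373 to 0.983. Fat genes set 1 array apart: Adipoq, a hormone of fat cells, had 9.62 in BSA replicate 3, against 5.58 to 6.79 in the other BSA arrays and 6.01 to 7.66 in HBSS arrays.

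**Figure D5:**
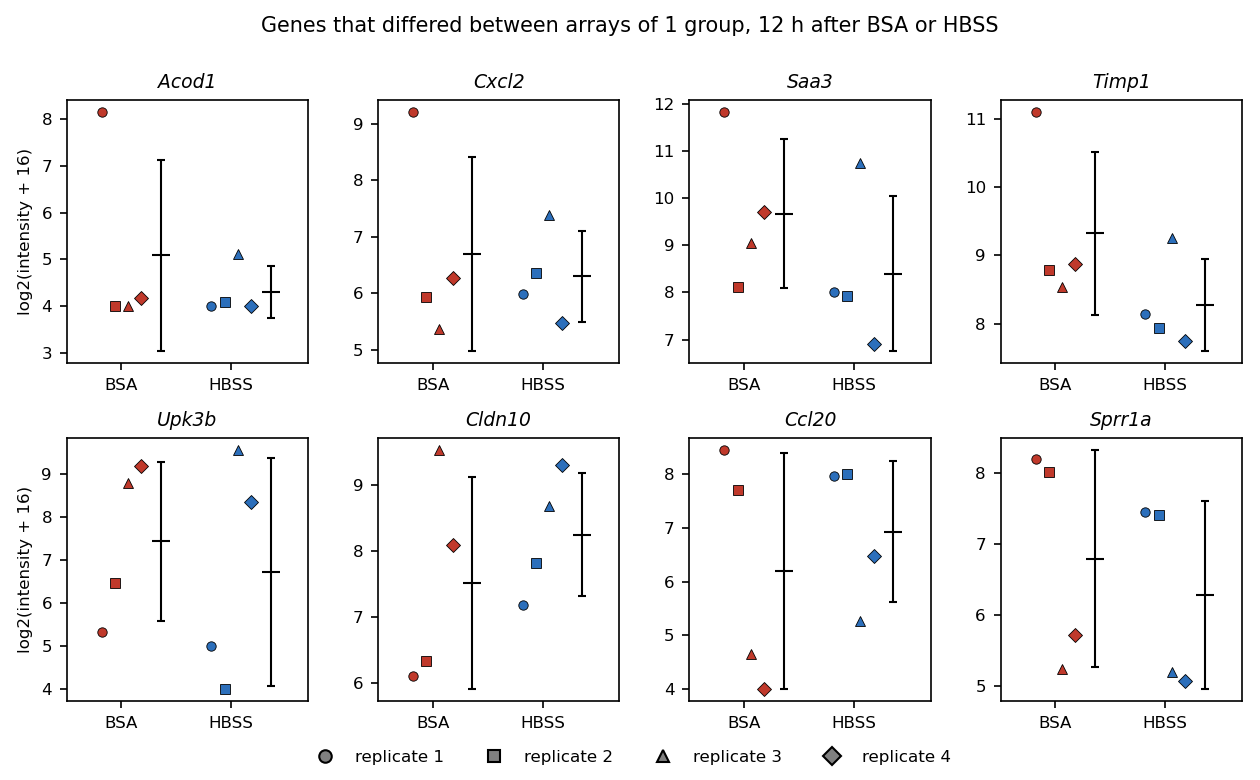
Each panel gives 1 gene, with BSA arrays (red) left of HBSS arrays (blue) at 12 h on log2(intensity + 16), marker shapes for the replicate number and mean ± SD (n = 4) beside each group. Acod1, Cxcl2, Saa3 and Timp1 were highest in BSA replicate 1, Upk3b and Cldn10 were higher in replicates 3 and 4 of both groups, and Ccl20 and Sprr1a were higher in replicates 1 and 2 of both.

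The fungal antigen at 12 h was compared with the same 4 HBSS arrays, so its values share them and are only set beside those of albumin. All 3 MACA arrays were in the high technical set (control ratios 1.74 to 1.90) and all 4 HBSS arrays in the low one, so set and treatment cannot be told apart there. Ltb averaged 9.01 ± 0.18 after MACA (SD, n = 3), 8.46 ± 0.33 after BSA and 7.43 ± 0.19 after HBSS (SD, n = 4 each), and Fes 8.60 ± 0.17, 8.07 ± 0.18 and 7.36 ± 0.20 in the same groups. Kif16b had 8.16 ± 0.23 after MACA, 8.26 ± 0.28 after BSA and 9.12 ± 0.15 after HBSS. These MACA and BSA means lay on the same side of vehicle. Ap2a1 had 7.33 ± 0.36 after MACA, 6.28 ± 0.48 after BSA and 7.30 ± 0.12 after HBSS, and Rbpjl 6.99 ± 0.36, 7.80 ± 0.22 and 7.08 ± 0.28. For these 2 genes the MACA mean lay near vehicle, with log2 folds over HBSS of 0.04 (adjusted p = 0.977) and -0.08 (adjusted p = 0.82). Saa3 stood at 12.91 ± 0.13 after MACA, above every BSA array. The HBSS 12 h mean was also set beside those of MACA 12 h, BSA 3 h and HBSS 3 h. It lay above all of them for C1d, Dzip1, Mospd2, Hipk3, Kif16b, Alyref, Sptssa and Fabp5. For Dzip1 it was 7.50, against 6.27, 6.83 and 6.84. It lay below all of them for Kctd20, Fes and Olfm1, and between them for Ltb, Blk, Apobec1 and Nfe2l2. Such genes were not counted over all genes, and the cause was not tested.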

How the data were processed

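Per the labels' protocols, biotin-labelled cRNA from total lung RNA was hybridised to arrays of 22690 probe sets with names of the Affymetrix type. Intensity values as deposited are linear, some below 0, and not at one level. For scanner software and summary method: not given in the sources used here. Precision is limited by the number of arrays. All 21 arrays were quantile normalized without the 64 control probe sets, values below 0 set to 0 and log2(value + 16) taken. limma (3.58.1, R 4.3.3) fitted 6 group means to 21 arrays (15 residual degrees of freedom), and Benjamini-Hochberg adjusted p under 0.05 over 22626 probe sets was the threshold. The tests were BSA against HBSS at 12 h and the change of that difference from 3 h. The script was tested on simulated data. Noise was set at intensity 40.9, the 95th percentile among negative values by size, and a gene within noise on all arrays of 1 group is given as at least N-fold.

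Symbols came from the platform annotation (20380 probe sets with 1 symbol, 691 with several, 1555 with none), of which 20351 matched RefSeq genes of GRCm38.p6. A gene was read by its brightest probe set. Named were the 15 highest and 15 lowest called genes without overlap and above noise, up to 4 called and 2 other members of each list by size, the 10 highest and lowest genes of BSA replicate 1 against the other BSA arrays, and the 8 highest and lowest changes. The genes compared, the lists and the rule were chosen with earlier results of these data known, and other genes named carry the words picked after their values were seen.

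Same-numbered BSA and HBSS arrays deviated from their group means together (r = 0.125, 0.449, 0.227 and 0.252 over probe sets above noise), so the replicate number was fitted as a block in an alternative. Some arrays of different number did so as well (BSA 1 with HBSS 2 at 0.343, BSA 3 with HBSS 4 at 0.212, BSA 4 with HBSS 3 at 0.209), which sets replicates 1 and 2 against 3 and 4 rather than pairing by number alone. No 2 arrays were identical (0 pairs). Alternatives changed the scaling, the pseudocount (4 or 64), the filter on dim probe sets, the arrays in the fit and the covariates. Figures used python 3.11.15 and matplotlib 3.10.9.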

Additional observations from a re-analysis of the deposited data

Results flagged for a closer look

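Within groups of 4 arrays, 250 sets of values were screened for 1 array far from the other 3 (Dixon's test at the 95% level), and 15 were picked out, while chance flags about 1 in 20 groups. That rate does not hold for genes named by BSA replicate 1 against the mean of the other BSA arrays. Among them were Acod1, U90926, Aldh1a3 and Retn. For Retn, BSA replicate 3 (9.04) raised that mean, and replicate 1 was at 4.00. In BSA replicate 1, Acod1 (8.16), Timp1 (11.10), S100a9 (11.77), U90926 (6.88), Aldh1a3 (6.98) and Hdac6 (8.08) lay far above the other BSA arrays and Prss23 (9.69) far below. In BSA replicate 2, Ccl22 (5.37) and Pim1 (8.44) were low, and in BSA replicate 3 the fat and myeloid gene Retn (9.04) was high. Of the HBSS arrays, replicate 1 was high for Pld4 (7.87) and replicate 3 for Acod1 (5.12, within noise). HBSS replicate 4 was low for S100a9 (8.28) and Birc3 (9.30) and high for Retn (6.20).

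The difference of BSA from HBSS at 12 h minus that at 3 h passed limma's test for 16 named genes. It was higher at 12 h for Krt83 (1.43), Metap1d (1.06), Pld4 (1.06), Fes (0.85), Pld3 (0.82), Ing1 (0.81), Fam50a (0.81) and Copz2 (0.70). It was lower at 12 h for Spire2 (-1.90), Gjb2 (-1.76), Mboat1 (-1.47), Fgfbp1 (-1.29), Mpzl2 (-1.22), Stx6 (-1.14), Hipk3 (-1.10) and Mal (-1.07), with adjusted p from 0.0137 to 0.0479 over the 16.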

How the results depend on the processing

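For BSA against HBSS at 12 h, 267 probe sets passed. Without scaling between arrays 3842 passed, 14 of them higher, and the median of all probe sets moved to -0.45. With arrays scaled to one median 109 passed, with 1 probe set per gene 167, with array weights 168, with the technical set as a term 2654, with that term and the replicate block, chosen after seeing the data, 2069, with the 8 arrays alone 1 (3186 at an unadjusted p under 0.05), with the 8 alone and the replicate block 0 (3744 at an unadjusted p under 0.05, limma), with the 8 normalized among themselves 5, within the low technical set 141, and without BSA replicates 1 and 2, chosen after seeing the data, 1669. Leaving out 1 array gave 12 to 644. With the replicate block on all arrays 379 passed, 131 of them higher, and 240 were shared with the 267. The block changed no other call among those refitted for named genes than those given with it above. The 12 h calls of Stx6, Krt83, Ing1 and Fam50a, named for their change between the times, were not refitted in the alternatives.

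For the change from 3 h to 12 h, 114 passed. No scaling gave 0 (7174 at an unadjusted p under 0.05, limma), one median 30, pseudocount 64 gave 200, the filter 62, 1 probe set per gene 34, array weights 176, the replicate block 177, the set term 2180 and the 14 arrays alone 15, and leaving out 1 array 17 to 393. Without scaling, Lrmp (-0.000824), Hdac6 (-0.012), Rpsa (-0.15), Rps14 (-0.21), Sftpc (-0.042), Tlr1 (-0.016), Samhd1 (-0.054), Olfm1 (-0.042) and the change of Copz2 (-0.028) turned negative, all still above the unscaled medians of -0.45 and, for the change, -0.57. Of the 35 called genes that the rule took for their 12 h difference or as list members, 35 stayed called with pseudocount 64, 30 with pseudocount 4, 30 with the replicate block, 14 with one median, 17 without scaling, 0 with the 8 arrays alone and 1 without HBSS replicate 2. The cause was not tested.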
